A study of Mus musculus with 12 samples.

Results

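Aortic endothelial cells of mice that keep Ets1 and lose Ets2 were set against wild-type cells on expression arrays. The comparison used 6 of the 12 arrays of the series, 3 titled as Ets2 null and 3 titled as wild type, and it described 11015 genes. Wild-type cells carried intact Ets1 and Ets2 (Ets1+/+; Ets2+/+) and were infected with a lentivirus for egfp, a green fluorescent protein. Ets2 null cells carried intact Ets1 and a loxP-flanked Ets2 (Ets1+/+; Ets2fl/fl) and were infected with a lentivirus for egfp-Cre, in which the marker is joined to the recombinase that deletes floxed DNA. Ets1 null cells (Ets1-/-; Ets2fl/fl, egfp virus) served as a further reference, and double null cells (Ets1-/-; Ets2fl/fl, egfp-Cre virus) only added to the estimate of spread. All cells came from mice aged 4 weeks and were grown in complete endothelial medium. The Ets2 null group differed from wild type in the Cre virus, in the floxed alleles and in Ets2 loss at once, so these cannot be told apart. The sample descriptions of both single null groups name the lost gene as wild type, and the titles were followed here. The labels call the arrays biological replicates without saying whether they came from separate mice, so p-values measure only the spread between these samples.

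ETS1 and ETS2 are closely related transcription factors that bind DNA with a GGAA core through a shared ETS domain. Both are phosphorylated by mitogen-activated protein kinases downstream of RAS, which raises their activity, and they act at many promoters together with AP-1. In endothelial cells they are known for roles in survival, migration and vessel growth, and each can cover part of the loss of the other.

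Values are the deposited log2 signals, so a difference of 1 is a doubling; differences are Ets2 null minus wild type with their SE (n = 3 and 3), and a gene is called where its limma p, adjusted over all 11015 genes, is under 0.05. The third array of each group stood apart. Wild-type arrays 1 and 2 correlated at 0.951, and the third correlated with them at 0.901 and 0.903. For the Ets2 null arrays the matching values were 0.974, 0.897 and 0.905. In Ets2 null array 3, 250 genes lay more than 2 below the mean of the other Ets2 null arrays and 117 lay as far above. Wild-type array 3 had 193 such genes below and 109 above. The comparison was therefore made with and without these arrays. The 3 Ets2 null arrays and wild-type array 1 had the Y-linked transcript Eif2s3y between 9.30 and 10.23, and the other wild-type arrays had 3.30 and 3.23. The Ets1 null arrays had 3.28, 3.12 and 3.33. Sex thus moved with the groups, and of the wild-type and Ets1 null arrays only wild-type array 1 shared the sex of the Ets2 null arrays. Kdr, Col1a2, Clec3b, Hif1a, Zc3h12a, Cav1, Map1b, Ddx21, Nolc1, Nhp2, Ebna1bp2 and Mki67 were chosen for description after their values were seen, outside the rule for named genes.

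The cells were checked against markers of their labelled type. Of 42 endothelial markers 15 were on the table; Pecam1 and Cdh5, which define the type, were not analysed here. Of these 15, 7 were higher and 8 lower in Ets2 null cells, with a median of -0.08 (0.17 without the third arrays), and none was called. All Ets2 null arrays lay above wild type in 1 marker (6.7%, Gata2) and below it in 2 (13.3%, Apln and Esm1). The shares over all genes were 12.3% and 14.2%. Kdr, the main receptor for vascular endothelial growth factor, measured 7.60, 7.39 and 7.33 in wild type, against 7.51, 7.21 and 7.21 in Ets2 null arrays. Plvap, which forms the diaphragms of fenestrae and caveolae, measured 10.80, 9.03 and 10.17 against 11.51, 11.93 and 10.29. Gata2, a transcription factor of endothelial and blood cells, measured 9.81, 9.03 and 9.02 against 10.59, 10.30 and 10.03, with all Ets2 null arrays above wild type (1.02 ± 0.44, adjusted p = 0.252). Of 20 measured fibroblast markers 11 were higher and 9 lower, with a median of 0.22 (-0.07 without the third arrays) and no call. All Ets2 null arrays lay above wild type in 4 of them (20.0%), Gsn and Dpt included, and below it in 1 (5.0%, Col1a1). Col1a2, a collagen chain, measured 13.12, 14.41 and 12.31 against 13.13, 11.61 and 13.24, and Clec3b, a plasminogen-binding lectin, 6.96, 6.92 and 7.05 against 6.96, 7.13 and 8.23. Signals of different probe sets cannot be compared as levels, so these values do not give the share of either cell type. No smooth muscle, leukocyte, epithelial or adipocyte marker was called either. In these bulk samples, fewer cells of a type and less RNA per cell cannot be told apart.

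Ets2 transcript itself did not mark the groups. It measured 9.72, 10.01 and 10.70 in wild type, against 9.63, 9.35 and 10.13 in Ets2 null arrays, so the groups overlapped, and the difference was -0.44 ± 0.38 (adjusted p = 0.558). A second Ets2 probe set gave -0.18. Whether either probe set lies in the deleted part of the gene is not given in the sources used here, so these values check neither the deletion nor the labels. Ets1, intact in both groups, measured 10.26, 9.84 and 10.06 against 9.50, 9.55 and 9.88 (-0.41 ± 0.23, adjusted p = 0.357), and its 4 probe sets lay between -0.64 and -0.27. Of 16 measured ETS family genes, 11 were lower and 5 higher, and none was called. Etv4, a member of the PEA3 group that is switched on by growth factor signalling, measured 10.12, 10.03 and 9.999 against 9.23, 8.94 and 7.26. Its groups did not overlap, and its difference of -1.57 ± 0.45 missed the threshold (adjusted p = 0.128). Of the 15 genes on each side of Ets2 on chromosome 16, 14 were on the table and none was called; 4 of them (Chaf1b, Ttc3, Dyrk1a and Brwd1) had groups that did not overlap, where 12.3% of all genes were separated upwards and 14.2% downwards.

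Across all genes, 18 were called higher (0.163% of those tested) and 16 lower (0.145%) in Ets2 null cells, and 2092 had an unadjusted p under 0.05. In all 34 called genes the 3 Ets2 null arrays lay beyond the 3 wild-type arrays. That separation alone was common: 1355 genes (12.3%) were separated upwards and 1567 (14.2%) downwards. The median difference of all genes was -0.02, and 893 genes differed by more than 1. The called genes that rose started low, with a median wild-type level of 7.57 that reached 9.27, and 14 of the 18 had a wild-type mean below 8. The called genes that fell started higher, at 10.3, and reached 8.70. Over all genes the median wild-type level was 9.43. These starting levels come from the values that made the calls, which can favour low wild-type values among rises and high ones among falls. The 34 genes lay on 17 chromosomes with at most 4 on any one. With the third arrays left out, 18 genes were called higher (0.163%) and 30 lower (0.272%), and 1661 had an unadjusted p under 0.05. The calls with and without these arrays shared 14 genes: Itih5, Pcbd1, Mamstr, Lnx1, Adam23, Armc7, Rmdn1 and Izumo4 rose, and Nfkbiz, Ppl, Maff, Ints6, P4ha2 and Nr4a1 fell. All 20 genes called only with every array kept their direction without the third arrays. With sex as a term in the model 4 genes were called and none of the 34 was among them. Only wild type held arrays of both sexes, so this term came from wild-type array 1 against wild-type arrays 2 and 3. The differences then equal the Ets2 null mean minus wild-type array 1. Those of the 34 genes kept a median of 98.2% of their size, but sex cannot be told apart from that single array. Fitted on the 6 arrays alone, limma called no gene (1734 at an unadjusted p under 0.05), so the calls rest on the spread pooled over all 4 groups. Leaving out Ets2 null array 1, 2 or 3 left 0 (1887 at an unadjusted p under 0.05), 8 and 7 calls, wild-type array 2 or 3 left 9 and 70, Ets1 null array 2 or 3 left 22 and 4, and either double null array left 18.

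**Figure D1:**
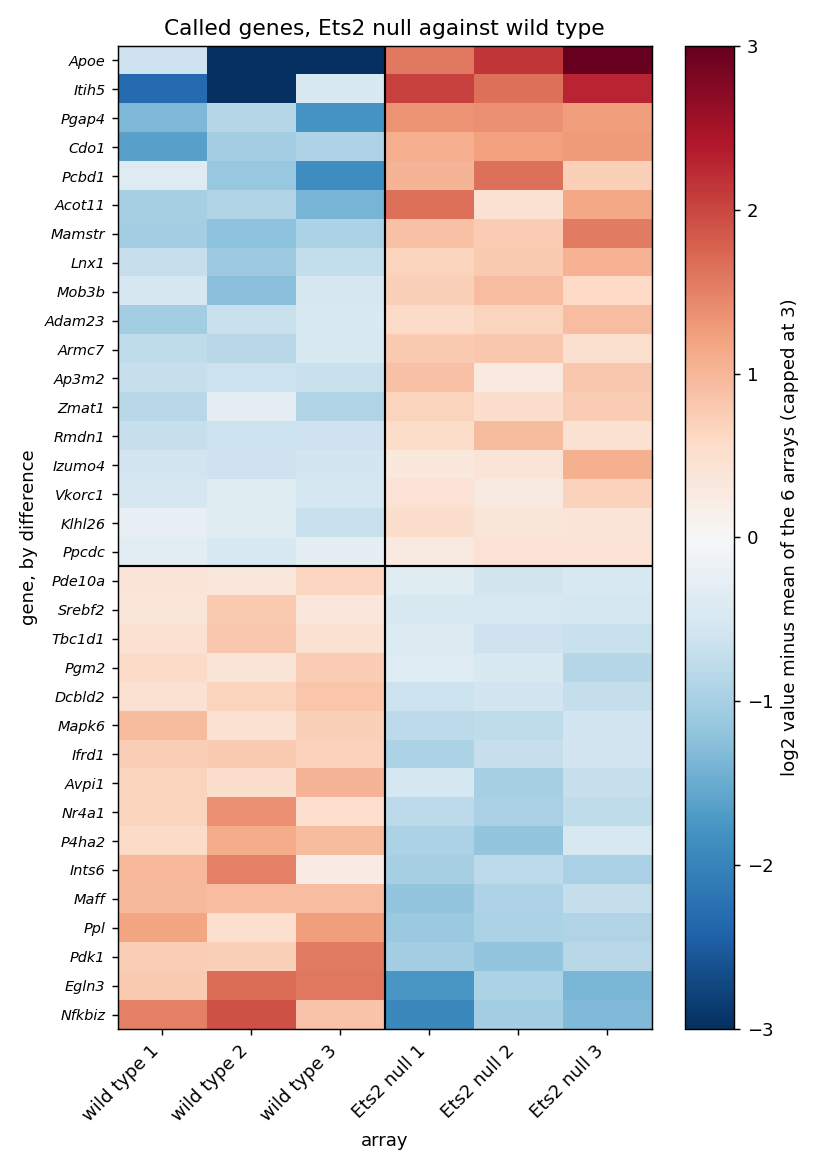
Heat map of the 34 genes called between Ets2 null and wild-type cells. Rows are genes in order of their difference, columns are the 6 arrays, and colour is the log2 value minus the gene's mean over these arrays, capped at 3; every called gene is on one side in all wild-type arrays and on the other in all Ets2 null arrays.

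Genes of the oxygen-sensing programme were mostly lower in Ets2 null cells. This programme is driven by hypoxia-inducible factors, which prolyl hydroxylases mark for destruction when oxygen is present. Of 39 measured members 34 were lower and 5 higher, with a median of -0.69; 14 were separated downwards (35.9%, beside 14.2% of all genes), and Egln3, Pdk1 and P4ha2 fell. Without the third arrays the median was -0.88, 35 of 39 were lower and the called member was P4ha2. Egln3, a prolyl hydroxylase that is itself a hypoxia-inducible factor target, measured 9.03, 9.93 and 9.84 in wild type, 6.51, 7.31 and 6.87 in Ets2 null and 8.70, 10.29 and 9.23 in Ets1 null arrays. All 3 Ets2 null arrays lay below every wild-type and Ets1 null array. Egln3 fell by 2.70 ± 0.41 (adjusted p = 0.04); without the third arrays the difference was -2.57 ± 0.55 (adjusted p = 0.102), and against Ets1 null it was -2.51 ± 0.41 (adjusted p = 0.0244). P4ha2, a subunit of the enzyme that hydroxylates collagen prolines, measured 9.82, 10.35 and 10.19 in wild type, 8.29, 8.05 and 8.77 in Ets2 null and 10.15, 10.18 and 9.73 in Ets1 null arrays. It fell by 1.75 ± 0.23 (adjusted p = 0.0252) and, without the third arrays, by 1.92 ± 0.25 (adjusted p = 0.0377). Hif1a, the oxygen-regulated subunit itself, measured 12.23, 12.40 and 12.31 against 11.37, 11.42 and 11.95, a separation of -0.73 ± 0.17 that missed the threshold (adjusted p = 0.0963).

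Glycolysis genes, some of them also in the oxygen-sensing list, were mostly lower too. Of 31 measured members 23 were lower and 8 higher, with a median of -0.63 (-0.57 without the third arrays), and 15 were separated downwards (48.4%, beside 14.2% of all genes). Pdk1, a kinase that inhibits pyruvate dehydrogenase, measured 10.11, 10.08 and 10.93 against 8.35, 8.17 and 8.54 and fell by 2.02 ± 0.31 (adjusted p = 0.0441). Pgm2, which interconverts sugar phosphates, measured 9.84, 9.65 and 10.03 against 8.87, 8.81 and 8.41 and fell by 1.14 ± 0.17 (adjusted p = 0.0409). Neither was called without the third arrays, with adjusted p = 0.0718 for Pdk1 and 0.0754 for Pgm2. Hk2, an inducible hexokinase, measured 8.76, 9.66 and 9.82 against 6.40, 6.42 and 7.60, and its difference of -2.61 ± 0.43 lay just outside the threshold (adjusted p = 0.0531). The respiratory chain, with 61 measured genes, had a median of -0.03 and no call. Tbc1d1, a Rab regulator of glucose transporter traffic, measured 8.67, 9.03 and 8.67 against 7.82, 7.60 and 7.55 and fell by 1.13 ± 0.15 (adjusted p = 0.0252).

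Promoters were read from RefSeq on GRCm38.p6, from 250 bases before to 50 after each start. The table held 20 promoters of 14 of the 16 genes that fell and 19 of 14 of the 18 that rose; Nfkbiz and Ppl were among those not searched. Each was searched on both strands for ACGTG, the core bound by hypoxia-inducible factors, for CCGGAAGT, a strong ETS site, for TGACTCA, an AP-1 site, and for CACGTG, an E-box that holds the HIF core. The HIF core ACGTG stood in 8 of 20 promoters of the genes that fell (40.0%), in 2 of 19 of those that rose (10.5%), in 25.6% of 11433 promoters of genes on the table and in 19.6% of all 32851 promoters. Those 8 promoters belong to Egln3, Ints6, Maff, Mapk6, P4ha2, Pde10a and Pgm2, with Mapk6 counted for both of its promoters. Base composition was not matched, and the shares were not tested. CCGGAAGT stood in none of the promoters searched for either called group, in 8.1% of those of genes on the table and in 3.9% of all. TGACTCA stood in none of them and in 3.8% and 5.2% of the same backgrounds. CACGTG stood in 1 of the 20 and 2 of the 19, in 1139 of the 11433 promoters of genes on the table and in 7.2% of all. In the oxygen-sensing list, ACGTG stood in 25 of 45 promoters (55.6%). The promoters of the called list members Egln3 (chr12:54203825-54204124, minus strand) and P4ha2 (chr11:54100674-54100973, plus strand) are shown as those of the called list members that hold the core, with ACGTG in capitals; the promoters of Pdk1, the other called member, do not hold it. Relative to the start site the first base of ACGTG is at -229 in Egln3 and at -78 and 10 in P4ha2.
Egln3: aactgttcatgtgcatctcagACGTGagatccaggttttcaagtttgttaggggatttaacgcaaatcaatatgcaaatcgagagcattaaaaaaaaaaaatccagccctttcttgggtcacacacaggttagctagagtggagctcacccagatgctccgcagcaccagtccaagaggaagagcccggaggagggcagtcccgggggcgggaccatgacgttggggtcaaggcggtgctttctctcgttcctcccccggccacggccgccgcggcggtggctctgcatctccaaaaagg
P4ha2: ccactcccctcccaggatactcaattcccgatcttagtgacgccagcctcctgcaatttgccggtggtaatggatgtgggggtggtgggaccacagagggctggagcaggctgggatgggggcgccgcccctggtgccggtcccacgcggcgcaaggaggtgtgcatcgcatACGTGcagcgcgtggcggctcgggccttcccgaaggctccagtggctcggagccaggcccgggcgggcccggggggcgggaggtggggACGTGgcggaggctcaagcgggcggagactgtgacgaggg

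Cholesterol genes were lower as well. Of 26 measured members 24 were lower, with a median of -0.80 (-0.96 without the third arrays), and 14 were separated downwards (53.8%, beside 14.2% of all genes). Srebf2, the transcription factor that switches on sterol synthesis and uptake, measured 10.19, 10.61 and 10.17 in wild type, 9.35, 9.35 and 9.31 in Ets2 null and 10.57, 10.48 and 10.31 in Ets1 null arrays. Its Ets2 null arrays lay close together and below all the rest. It fell by 0.99 ± 0.14 (adjusted p = 0.0382; -1.05 ± 0.17, adjusted p = 0.0619 without the third arrays). For fatty acid synthesis 17 of 25 genes were lower, with a median of -0.19 and no call.

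Immediate-early genes, the first to respond to growth factor signals, were mostly lower. Of 40 measured AP-1 and immediate-early genes 31 were lower and 9 higher, the median was -0.58 (-0.48 without the third arrays), 15 were separated downwards (37.5%, beside 14.2% of all genes) and Maff, Nr4a1 and Ifrd1 fell. Maff, a small basic leucine zipper factor, measured 9.68, 9.62 and 9.62 in wild type, against 7.51, 7.76 and 7.99 in Ets2 null arrays. It fell by 1.88 ± 0.22 (adjusted p = 0.0252), and without the third arrays by 2.01 ± 0.28 (adjusted p = 0.0415). Nr4a1, an orphan nuclear receptor, measured 9.27, 9.97 and 9.09 against 7.80, 7.62 and 7.83, with 9.58, 9.69 and 9.21 in Ets1 null arrays, and fell by 1.69 ± 0.23 (adjusted p = 0.0258). Its Ets2 null arrays were below all 6 others. Ifrd1, a transcriptional cofactor, measured 11.28, 11.34 and 11.23 against 9.60, 9.87 and 9.98 and fell by 1.47 ± 0.20 (adjusted p = 0.0258). Mapk6, an atypical mitogen-activated kinase, measured 12.59, 12.09 and 12.36 against 10.85, 10.88 and 11.07 and fell by 1.41 ± 0.18 (adjusted p = 0.0252). It was the 1 called gene among 47 MAP kinases, phosphatases and feedback inhibitors, where 0.145% of all genes were called lower. Of these 47 genes 34 were lower and 13 higher, and 13 were separated downwards (27.7%, beside 14.2% of all genes). Ets2 null array 3 lay more than 2 below its group in 8 of the 40 immediate-early genes.

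The called gene with the largest fall was an inflammatory regulator. Nfkbiz, a nuclear protein of the IkappaB family that binds NF-kappaB, measured 11.64, 12.05 and 10.99 in wild type, 8.19, 9.11 and 8.81 in Ets2 null and 10.002, 9.87 and 9.31 in Ets1 null arrays. The Ets2 null arrays were lowest, and the Ets1 null arrays lay between the groups. Nfkbiz fell by 2.86 ± 0.34 (adjusted p = 0.0252), by 3.20 ± 0.38 without the third arrays (adjusted p = 0.0283), and its difference from Ets1 null was -1.02 ± 0.34 (adjusted p = 0.128). Of 34 NF-kappaB regulators 23 were lower, with a median of -0.18, and 7 were separated downwards (20.6%, beside 14.2% of all genes). Nfkbiz was the call, where 0.145% of all genes were called lower. Without the third arrays, where 0.272% of all genes were called lower, 3 of the 34 were. Zc3h12a, an RNase that degrades cytokine messages, was among them: it measured 8.51, 8.44 and 7.16 against 7.01, 6.81 and 6.98. It fell by 1.57 ± 0.15 without the third arrays (adjusted p = 0.0161), beside -1.11 ± 0.32 with all (adjusted p = 0.129).

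**Figure D2:**
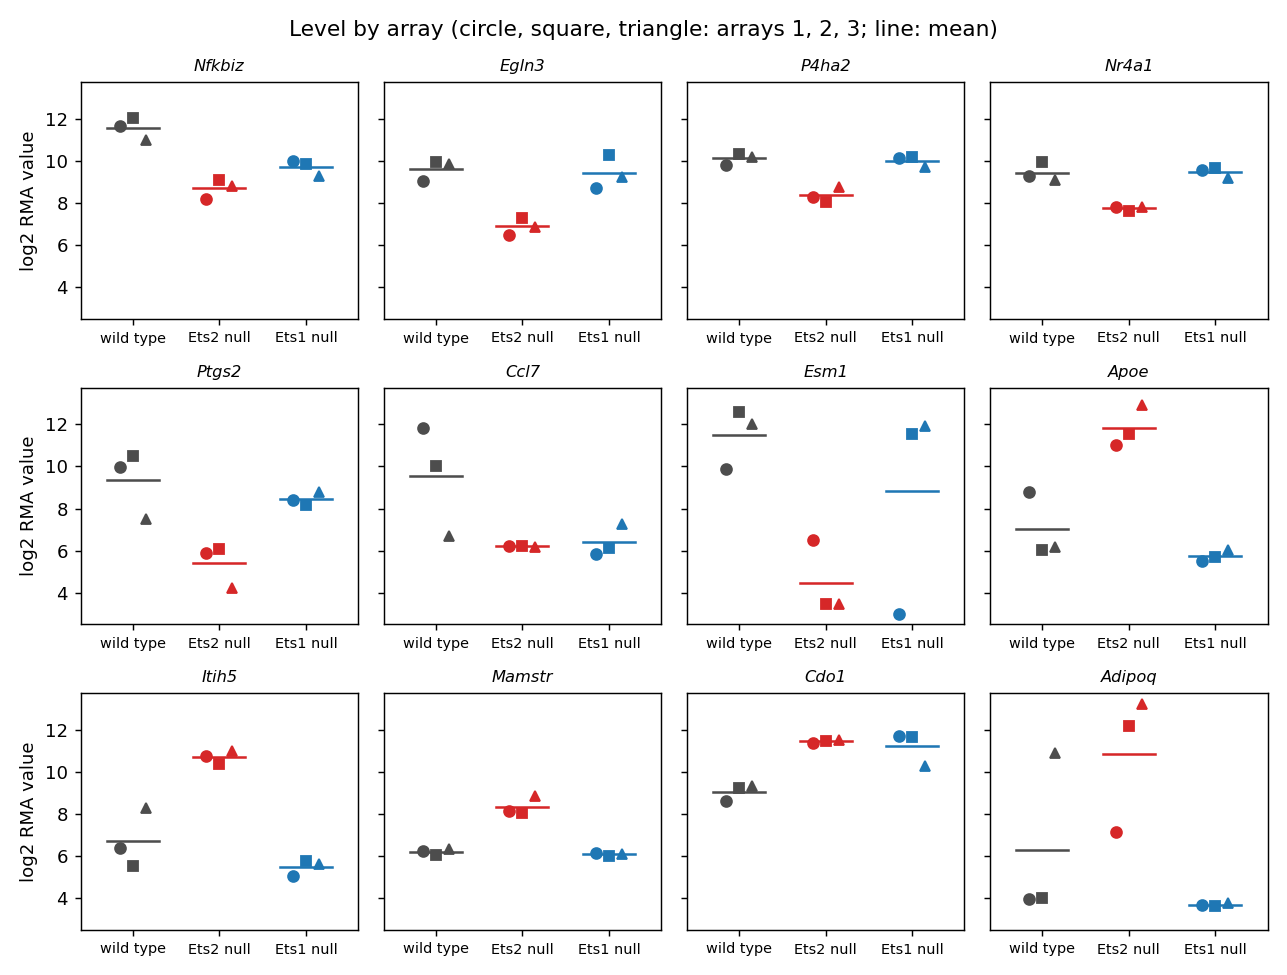
Log2 value of 12 genes in each array of the wild-type, Ets2 null and Ets1 null groups, with circle, square and triangle for arrays 1, 2 and 3 and a line at the group mean. Nfkbiz, Egln3, P4ha2 and Nr4a1 are lower in every Ets2 null array; in Ptgs2 the third wild-type array lies between the Ets2 null and Ets1 null arrays, in Ccl7 it is close to both null groups, and in Adipoq it is close to the Ets2 null group.

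Calls on inflammation genes changed with the third arrays. Of the 34 genes called only without the third arrays, 24 were lower; in 15 of these wild-type array 3 lay more than 1 below both other wild-type arrays, and in 10 it lay at or under the highest Ets2 null array. Ptgs2, the inducible cyclooxygenase, measured 9.99, 10.50 and 7.52 in wild type, against 5.88, 6.09 and 4.25 in Ets2 null arrays, so the third array was the lowest in each group. It fell by 4.26 ± 0.25 without them (adjusted p = 0.00505) and had a difference of -3.93 ± 0.74 with them (adjusted p = 0.0618). Tnfaip3, the A20 ubiquitin-editing inhibitor of NF-kappaB, measured 9.71, 10.67 and 8.02 against 6.40, 7.0 and 8.44: the third arrays were in the reverse order to the others. It fell by 3.49 ± 0.36 without them (adjusted p = 0.0206) beside -2.19 ± 0.67 with them (adjusted p = 0.147). Tslp, a cytokine that acts on dendritic cells, measured 9.09, 8.96 and 5.37 against 12.92, 11.97 and 6.86; it rose by 3.42 ± 0.33 without the third arrays (adjusted p = 0.0161).

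Chemokine values were split within wild type. The 27 measured chemokines, cytokines and adhesion molecules had medians, relative to each gene's mean over the 6 arrays, of 1.13, 0.64 and -0.61 in wild-type arrays 1 to 3 and of -0.53, -0.09 and -0.48 in Ets2 null arrays. Their median difference was -0.57 with all arrays and -0.88 without the third, with 19 and 23 lower. Ccl7, a monocyte attractant, measured 11.84, 10.04 and 6.72 in wild type, 6.24, 6.23 and 6.18 in Ets2 null and 5.85, 6.12 and 7.26 in Ets1 null arrays (-3.31 ± 1.11, adjusted p = 0.174). Only the first and second wild-type arrays were high among these 9. Ccl5, a T-cell attractant, measured 8.27, 8.57 and 6.97 against 6.48, 6.48 and 5.87 and fell by 1.94 ± 0.24 without the third arrays (adjusted p = 0.0327). Interferon response genes had a median of -0.25 with all arrays and -0.75 without the third, with 33 and 39 of 44 lower and none called.

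**Figure D3:**
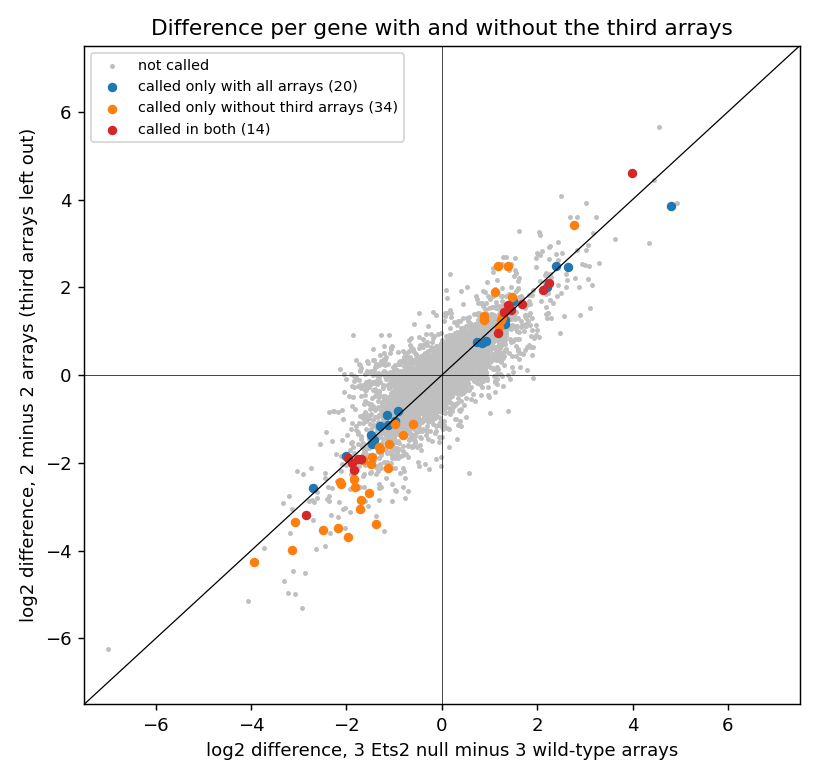
Difference of each gene with all 6 arrays (horizontal, log2) against the difference with the third array of each group left out (vertical, log2), one point per gene, coloured by call. The 14 genes called in both lie near the diagonal of equal values, while most genes called only without the third arrays and lower lie below it.

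Other genes called only without the third arrays reached beyond inflammation. Cav1, the coat protein of caveolae, measured 12.94, 13.46 and 12.60 against 11.25, 11.08 and 12.20 and fell by 2.03 ± 0.23 (adjusted p = 0.0278), beside -1.49 ± 0.32 with all arrays (adjusted p = 0.0776). Map1b, a microtubule-associated protein, measured 9.86, 10.35 and 8.65 against 7.61, 7.74 and 7.12; it fell by 2.43 ± 0.17 (adjusted p = 0.00505), and with all arrays its difference was -2.13 ± 0.37 (adjusted p = 0.0531). Gt(ROSA)26Sor, a noncoding transcript of a locus widely used to insert transgenes, measured 7.66, 7.70 and 9.17 in wild type, 4.31, 4.35 and 6.64 in Ets2 null and 9.18, 7.56 and 8.41 in Ets1 null arrays. Gt(ROSA)26Sor fell by 3.35 ± 0.44 (adjusted p = 0.0393) without the third arrays and had -3.08 ± 0.69 with all (adjusted p = 0.0883).

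Ribosome assembly genes were lower by small differences. All 48 measured ribosome biogenesis genes were lower, with a median of -0.54, and 35 of them were separated downwards (72.9%, beside 14.2% of all genes); none was called. Without the third arrays the median was -0.30 and 45 of 48 were lower. The list medians relative to gene means were 0.07, 0.21 and 0.56 in wild-type arrays 1 to 3 and -0.15, -0.18 and -0.41 in Ets2 null arrays. Ddx21, a nucleolar RNA helicase, measured 10.31, 10.48 and 10.62 against 9.57, 9.63 and 8.76 (-1.15 ± 0.40, adjusted p = 0.187). Nolc1, a nucleolar phosphoprotein that assists assembly, measured 10.74, 10.97 and 11.66 against 10.32, 10.32 and 9.88 (-0.95 ± 0.35, adjusted p = 0.205). The cytosolic ribosomal proteins had a median of 0.00, whose sign changed with scaling, with 22 of 42 higher and 20 lower. All 38 measured proteasome subunits were lower too, with a median of -0.24, 18 separated downwards (47.4%) and none called (-0.18 and 36 of 38 without the third arrays). Of 53 splicing factors 43 were lower, with a median of -0.25 and 24 separated downwards (45.3%).

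Promoters of the ribosome assembly genes were searched for the same motifs. The ETS site CCGGAAGT stood in 13 of 46 promoters (28.3%), which belong to 12 genes, and in 7 of these genes all Ets2 null arrays lay below wild type, beside 35 of 48 in the whole list. The share among genes on the table was 8.1%, with base composition not matched. Nhp2, a box H/ACA small nucleolar ribonucleoprotein, measured 12.12, 12.27 and 12.89 against 11.97, 11.80 and 10.99 (-0.84 ± 0.35, adjusted p = 0.238). Ebna1bp2, a nucleolar assembly factor, measured 10.99, 11.23 and 11.99 against 10.80, 10.82 and 10.13 (-0.82 ± 0.31, adjusted p = 0.214). Both were picked by the size of their fall among separated list members that hold the site. In both, wild-type array 3 was the highest and Ets2 null array 3 the lowest of the arrays compared. The promoters of Nhp2 (chr11:51619523-51619822, plus strand) and Ebna1bp2 (chr4:118620549-118620848, plus strand) are shown with CCGGAAGT in capitals, its first base at -23 in Nhp2 and at -3 in Ebna1bp2.
Nhp2: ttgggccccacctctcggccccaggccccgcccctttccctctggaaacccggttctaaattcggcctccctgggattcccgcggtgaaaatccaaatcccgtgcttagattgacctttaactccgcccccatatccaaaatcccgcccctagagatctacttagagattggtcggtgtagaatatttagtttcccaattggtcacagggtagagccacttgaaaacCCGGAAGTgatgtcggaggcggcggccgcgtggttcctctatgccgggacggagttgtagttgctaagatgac
Ebna1bp2: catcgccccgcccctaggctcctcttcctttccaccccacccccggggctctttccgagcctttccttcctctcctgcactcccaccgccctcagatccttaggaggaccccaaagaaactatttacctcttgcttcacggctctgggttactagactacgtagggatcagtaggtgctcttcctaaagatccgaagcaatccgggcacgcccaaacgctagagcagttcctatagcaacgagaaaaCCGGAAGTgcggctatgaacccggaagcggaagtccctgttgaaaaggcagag

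Cell division genes were low in a single Ets2 null array. All 57 measured mitosis genes were lower with every array (median -1.39), but 43 of 57 were higher without the third arrays (median 0.09), and only 4 were separated downwards (7.0%, below the 14.2% of all genes). In 52 of the 57, Ets2 null array 3 lay more than 2 below its group. Mki67, a proliferation antigen, measured 12.31, 12.28 and 12.34 in wild type, against 12.37, 12.26 and 6.61 in Ets2 null arrays. Only the third Ets2 null array was low. Of the DNA replication genes 49 of 50 were lower with a median of -0.93, 27 were separated downwards (54.0%), and without the third arrays 37 of 50 were lower with a median of -0.16. Targets of p53 were higher in 30 of 35 cases with a median of 0.47, which became 0.16 without the third arrays; wild-type array 3 lay more than 2 below its group in 9 of them, and none was called.

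**Figure D4:**
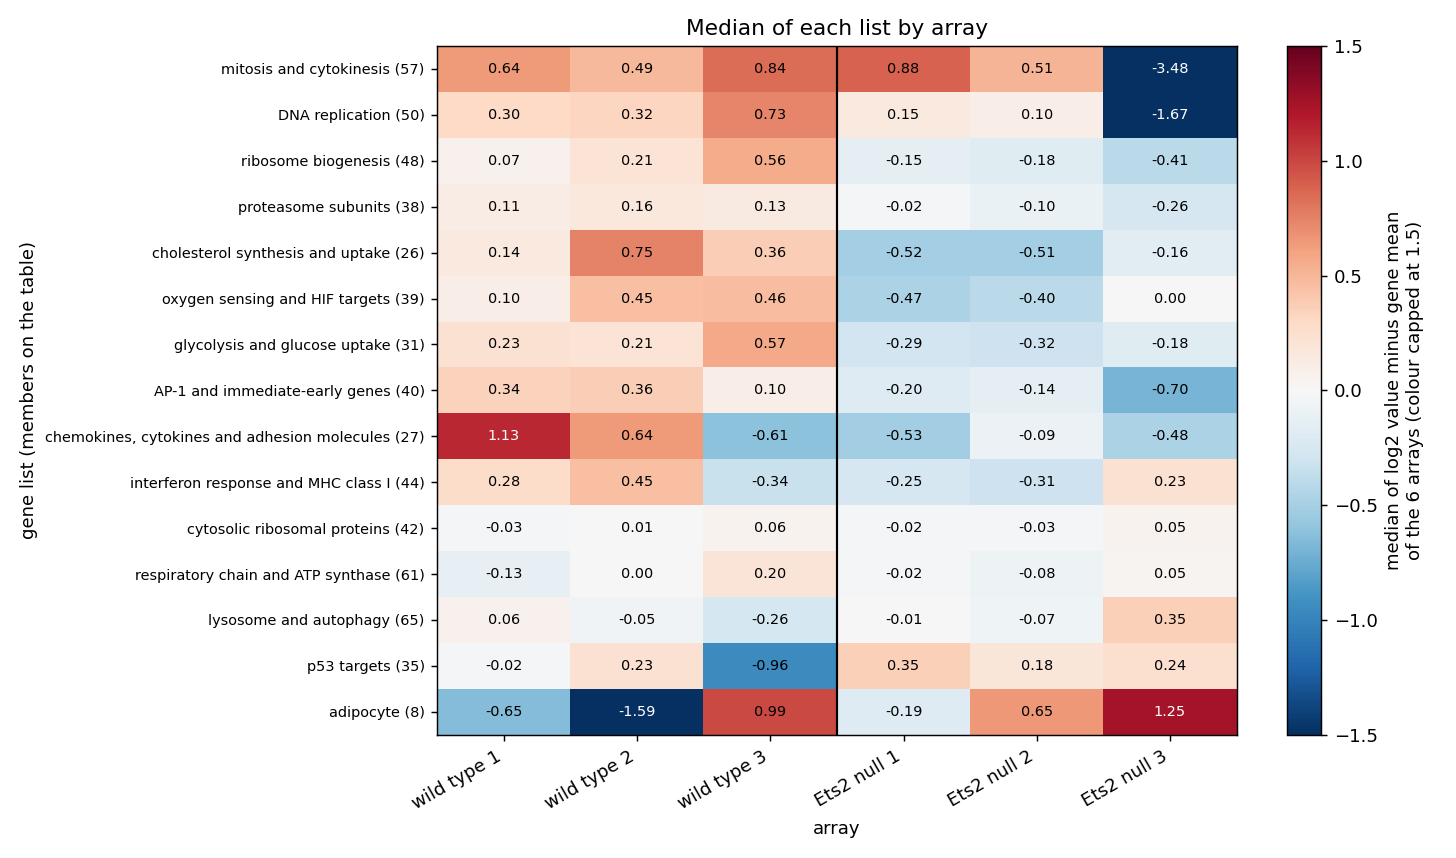
Median of 15 gene lists in each of the 6 arrays, as log2 value minus the gene's mean over the arrays, with the number of members in parentheses and colour capped at 1.5. Mitosis genes reach -3.48 in Ets2 null array 3 alone, chemokines are high in wild-type arrays 1 and 2, and ribosome biogenesis genes are above 0 in all wild-type and below 0 in all Ets2 null arrays.

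A lipid carrier, Apoe, and a matrix protein, Itih5, had the largest rises among the called genes. Apoe, a lipoprotein of cholesterol transport, measured 8.81, 6.06 and 6.20 in wild type, 11.00, 11.56 and 12.92 in Ets2 null and 5.50, 5.71 and 6.03 in Ets1 null arrays. All Ets2 null arrays lay above the rest, though wild-type array 1, the male one, was higher than its group. Apoe rose by 4.80 ± 0.72 (adjusted p = 0.0385); the difference from the male wild-type array alone was 3.02, and without the third arrays it was 3.85 ± 0.77 (adjusted p = 0.0898). Acot11, an acyl-CoA thioesterase, measured 7.83, 7.91 and 7.42 against 10.48, 9.28 and 9.99 and rose by 2.20 ± 0.33 (adjusted p = 0.0385). These were the 2 calls among 41 genes of fatty acid oxidation and lipid carriage, where 0.163% of all genes were called higher. Neither was called without the third arrays, with adjusted p = 0.0985 for Acot11. Of the 41 genes, 29 were higher with a median of 0.19 and 7 separated upwards (17.1%, beside 12.3% of all genes). Itih5, a hyaluronan-binding matrix protein, measured 6.40, 5.53 and 8.28 in wild type, 10.77, 10.37 and 11.01 in Ets2 null and 5.05, 5.78 and 5.63 in Ets1 null arrays. It rose by 3.98 ± 0.59 (adjusted p = 0.0385) and by 4.61 ± 0.38 without the third arrays (adjusted p = 0.00782). Adam23, a disintegrin without protease activity, measured 5.81, 6.18 and 6.38 against 7.43, 7.51 and 7.76 and rose by 1.44 ± 0.19 (adjusted p = 0.0252).

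Other genes that rose spanned transcription, protein turnover and cofactor metabolism. Mamstr, a coactivator of the muscle transcription factor MEF2, measured 6.26, 6.06 and 6.33 in wild type, 8.16, 8.03 and 8.84 in Ets2 null and 6.17, 5.99 and 6.12 in Ets1 null arrays. It rose by 2.12 ± 0.20 (adjusted p = 0.0115) and by 1.93 ± 0.13 without the third arrays (adjusted p = 0.00505). Lnx1, a ubiquitin ligase that binds NUMB, measured 8.01, 7.60 and 7.96 against 9.37, 9.48 and 9.74 and rose by 1.67 ± 0.15 (adjusted p = 0.0115). Pgap4, which adds a sugar to membrane anchors, measured 6.44, 6.95 and 6.03 against 9.14, 9.17 and 9.05 and rose by 2.65 ± 0.43 (adjusted p = 0.0481). Its 3 Ets2 null values lay close together. Pcbd1, which recycles the cofactor tetrahydrobiopterin, measured 8.73, 7.98 and 7.26 against 10.14, 10.76 and 9.82, a rise of 2.25 ± 0.36 (adjusted p = 0.0463). Vkorc1, the enzyme that recycles vitamin K, measured 12.07, 12.22 and 12.04 against 13.00, 12.84 and 13.27, a rise of 0.93 ± 0.15 (adjusted p = 0.0466). The other genes called higher were Mob3b, Armc7, Ap3m2, Zmat1, Rmdn1, Izumo4, Klhl26 and Ppcdc, with rises from 0.74 in Ppcdc, an enzyme of coenzyme A synthesis, to 1.5 in Mob3b, a kinase activator.

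The remaining genes that fell had structural, signalling and RNA roles. Ppl, a plakin that links filaments to cell junctions, measured 10.91, 10.24 and 10.99 against 8.62, 8.77 and 8.83 and fell by 1.98 ± 0.20 (adjusted p = 0.0125). Ints6, a subunit of the Integrator complex, measured 11.85, 12.38 and 11.10 against 9.86, 10.07 and 9.88 and fell by 1.84 ± 0.29 (adjusted p = 0.0463) in its brightest probe set. The other Ints6 probe sets gave -0.31, -0.14 and 0.55, and the mean of its probe sets gave -0.43 and was not called. Avpi1 measured 10.80, 10.66 and 11.15 against 9.60, 9.13 and 9.44 and fell by 1.48 ± 0.19 (adjusted p = 0.0252). Dcbld2, a neuropilin-like membrane protein, measured 10.87, 11.09 and 11.25 against 9.78, 9.85 and 9.70 and fell by 1.29 ± 0.17 (adjusted p = 0.0252). In all 4 genes the wild-type arrays lay above the Ets2 null arrays. Of the 34 called genes, 10 had several probe sets, and in all 10 the second set differed in the same direction. The fourth Ints6 set differed in the opposite one. The second sets of Rmdn1 and Ints6 gave 0.65 and -0.31 with all arrays, but only 0.09 and -0.05 without the third arrays.

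Ets1 null cells allowed a reading of which differences set Ets2 null cells apart from the other single null. Virus, Ets1 genotype and sex differ there too, as every Ets2 null array was male and no Ets1 null array was. These cannot be told apart in the contrast with Ets1 null. In that contrast 167 genes were higher (1.52%) and 177 lower (1.61%) in Ets2 null cells. These 344 calls became 61, 53 and 117 without Ets2 null array 1, 2 or 3, 127, 25 and 33 without Ets1 null array 1, 2 or 3, and 573 without wild-type array 3; with each array centred on its median 223 of 379 calls were higher (58.8% in place of 48.5%). Cdo1, which oxidises cysteine, measured 8.62, 9.23 and 9.33 in wild type, 11.36, 11.48 and 11.54 in Ets2 null and 11.69, 11.67 and 10.30 in Ets1 null arrays. Both null groups lay above wild type: Cdo1 rose by 2.40 ± 0.35 over wild type (adjusted p = 0.0385), and its difference from Ets1 null was 0.24 ± 0.35 (adjusted p = 0.727). Pde10a, a cyclic nucleotide phosphodiesterase, measured 8.12, 8.09 and 8.38 in wild type, 7.37, 7.20 and 7.28 in Ets2 null and 7.21, 7.37 and 7.15 in Ets1 null arrays. It fell by 0.91 ± 0.12 from wild type (adjusted p = 0.0276) and differed from Ets1 null by 0.04 ± 0.12 (adjusted p = 0.864). Both single null groups carried floxed Ets2 alleles and wild type did not. In Cdo1 and Pde10a, the floxed alleles and the loss of either gene therefore cannot be told apart. Apoe, Itih5 and Mamstr differed from Ets1 null by 6.08 ± 0.72 (adjusted p = 0.00835), 5.23 ± 0.59 (adjusted p = 0.00835) and 2.25 ± 0.20 (adjusted p = 0.00355).

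Several of the largest differences were not called. Esm1, an endothelial proteoglycan, measured 9.89, 12.58 and 12.02 in wild type, 6.49, 3.49 and 3.49 in Ets2 null and 3.02, 11.55 and 11.94 in Ets1 null arrays. The Ets2 null and wild-type arrays did not overlap, yet Ets1 null array 1 lay below every Ets2 null array; the difference was -7.00 ± 2.37 (adjusted p = 0.176). Acta2, smooth muscle actin, measured 11.81, 12.70 and 11.34 against 9.36, 9.35 and 9.12 (-2.67 ± 0.91, adjusted p = 0.177). Fgf7, a growth factor for epithelium, measured 10.42, 10.66 and 10.70 against 6.79, 8.60 and 8.22 (-2.72 ± 0.54, adjusted p = 0.0679). Upwards, Rgs5, a pericyte marker that dampens G-protein signals, measured 7.45, 7.90 and 6.97 in wild type, 13.03, 10.18 and 13.93 in Ets2 null and 6.11, 11.71 and 11.13 in Ets1 null arrays (4.94 ± 1.43, adjusted p = 0.131). Rgs5 thus varied as widely among Ets1 null arrays as between the groups compared.

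Adipocyte markers varied from array to array, and none was called. Of 8 measured markers 7 were higher in Ets2 null cells, with a median of 1.30 (1.74 without the third arrays). The list medians relative to gene means were -0.65, -1.59 and 0.99 in wild-type arrays 1 to 3 and -0.19, 0.65 and 1.25 in Ets2 null arrays. Adipoq, an adipocyte hormone, measured 3.98, 4.01 and 10.89 in wild type, 7.15, 12.16 and 13.22 in Ets2 null and 3.70, 3.63 and 3.80 in Ets1 null arrays. Wild-type array 3 lay above the lowest Ets2 null array, and the difference was 4.55 ± 1.98 (adjusted p = 0.257). Lpl, which releases fatty acids from lipoproteins, measured 7.10, 7.44 and 12.44 against 9.87, 12.50 and 13.67 (3.02 ± 1.72, adjusted p = 0.371). Apoe, which adipocytes also express, had its highest value in Ets2 null array 3, as did Adipoq and Lpl. In wild-type array 3 Adipoq and Lpl measured 10.89 and 12.44 and Apoe 6.20. In Ets2 null array 1 Adipoq and Lpl measured 7.15 and 9.87 and Apoe 11.00. The part of adipocyte RNA in the rise of Apoe was not tested.

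Matrix and positional genes split by member. Of 57 matrix glycoproteins 12 were separated upwards (21.1%) and 5 downwards (8.8%), and of 34 matrix proteases and inhibitors 7 upwards (20.6%) and none downwards, beside 12.3% and 14.2% of all genes. The medians of these lists were 0.19 and 0.27 with all arrays. Without the third arrays they were -0.05 and -0.12, with 30 of 57 and 19 of 34 lower. Gsn, an actin-severing protein, measured 13.36, 13.26 and 13.61 against 14.51, 14.14 and 14.65, and its difference of 1.03 ± 0.17 lay just outside the threshold (adjusted p = 0.0531). Timp3, a matrix-bound protease inhibitor, measured 12.59, 12.59 and 12.79 against 13.41, 13.37 and 13.54 (0.79 ± 0.15, adjusted p = 0.0673). Of 42 collagens and their enzymes 21 were higher and 21 lower, and 27 were lower without the third arrays. Col1a1, the main fibrillar chain, measured 12.02, 13.33 and 11.93 against 10.40, 9.17 and 11.22 (-2.17 ± 0.54, adjusted p = 0.101). Among 54 Hox and other positional factors 35 were higher with a median of 0.20 and none was called with all arrays. Foxf2, a mesenchymal forkhead factor, measured 6.92, 7.65 and 8.43 against 6.09, 4.85 and 5.38 (-2.22 ± 0.42, adjusted p = 0.0618). Hoxd9, a homeobox factor of the posterior body, measured 6.72, 6.70 and 6.93 against 11.00, 7.52 and 11.74 (3.30 ± 0.87, adjusted p = 0.112).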

How the data were processed

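RNA of cultured mouse aortic endothelial cells was measured on expression arrays, 12 columns over 20523 probe sets. The deposited values are log2 signals; RMA is named in the submitters' processing notes, whose version is not given in the sources used here, and whether it was run on all arrays together is not given there either. The median over probe sets was 8.30 and 8.29 on the double null arrays and 9.05 to 9.15 on the other 9, so the deposited arrays are not all on one scale; no double null level is set against another group, and these arrays entered only the spread. RMA compresses differences of dim probe sets, and array number limits the precision. One column titled as a double null array equals the mean of the other double null columns in 20521 probe sets (99.9903%, within 1e-06) and was left out, leaving 11 arrays. Of the probe sets, 18824 had 1 gene symbol in the platform annotation, 549 several and 1150 none; of the first, 18788 had a symbol in the RefSeq table. For each of 11015 genes, the probe set that was brightest on average in the 6 compared arrays was used.

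limma 3.58.1 (R 4.3.3) fitted the 4 group means on the 11 arrays (7 residual degrees of freedom); tests were two-sided with Benjamini-Hochberg adjustment over all genes at 0.05. The fit was tested on simulated data with independent noise of equal spread in every array. That test does not cover outlying arrays such as the third ones. Named genes were Ets1 and Ets2, all called genes, the 12 largest uncalled but separated differences in each direction, up to 12 in each direction called without the third arrays, and 5 members per list by smallest p; others are marked in the text. The members and the 49 lists were chosen with earlier results of these data known. Lists were described by counts and medians, without a test. Promoter sequences came from RefSeq (GRCm38.p6). Alternatives left out arrays, added a replicate block or a sex term, or changed scaling, probe set choice, filter, weights or variance prior; leaving out each double null array was chosen after seeing the data.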

Additional observations from a re-analysis of the deposited data

How the results depend on the processing

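All 781 alternative values of the 34 called genes had the direction reported, and 370 of them passed the threshold; each gene was called in 4 to 19 of its alternatives. Of 1127 alternative list medians, 45 moved by more than the spread between arrays. The 34 calls against wild type ranged from 0 to 70 when each array was left out in turn. They became 48 without the third arrays, 0 on the 6 arrays alone (1734 at an unadjusted p under 0.05), 0 on the 4 arrays left without the third ones (2368), 18 without the double null arrays, 4 with a sex term, 52 with the mean of probe sets and 1049 with array weights, which gave wild-type array 3 a weight of 0.304 and Ets2 null array 3 one of 0.296. The 344 calls against Ets1 null ranged from 25 to 573 when each array was left out, and became 13 without the third arrays, 124 on the 4 arrays of that contrast and 3015 with array weights; a sex term was not possible there. With the replicate block the calls became 5 against wild type and 118 against Ets1 null. Deviations of same-numbered wild-type and Ets2 null arrays correlated at -0.102, -0.151 and -0.032, and those of differently numbered arrays at -0.092 to 0.26. These values show no pairing by number, but with so few arrays they cannot exclude it. Centring gave 49 calls against wild type and quantile normalization 50. The cause of these shifts was not tested. The signal of cytosolic ribosomal proteins changed sign with scaling around a median of 0.00.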
